A study of Mus musculus with 12 samples.

Results

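The 8 genes Crabp2, Adh1, Aldh1a1, Aldh1a2, Aldh1a3, Rara, Rarb and Rarg carry retinoid binding, retinoic acid synthesis and retinoic acid reception, and their RNA was followed in sorted fibro-adipogenic progenitors of mouse skeletal muscle. They were chosen by name from 54100 genes in the count table, with earlier results for these 12 libraries known, so their own differences are given below as a description, with intervals but without p-values. Of the 8 genes, 7 had enough counts to enter the fit of 8161 genes, and Rarb did not. These progenitors (FAPs) are mesenchymal cells of the muscle interstitium that carry Pdgfra and can form fat and connective tissue.

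The cells came from plantaris muscles of 4 groups with 3 libraries each. The cdKO mice carried the Pdgfra-CreERT2 driver with floxed alleles of both Yap1 and Taz (gene symbol Wwtr1), which encode transcriptional co-activators of the Hippo pathway. Control mice carried the same Pdgfra-CreERT2 driver, and their labels name no floxed allele. The muscles of each genotype were overloaded or sham-operated, so the groups are cdKO overload, cdKO sham, control overload and control sham. CreERT2 is a recombinase that acts after tamoxifen in cells that express Pdgfra, the gene that also defined the sorted cells. The sources used here do not state the strain, age, tamoxifen schedule, time since surgery or pooling of animals. Nothing in the labels says that libraries of a group came from separate animals, so intervals and p-values reflect how far such libraries differ, which may be technical in part.

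Retinol, the circulating form of vitamin A, is oxidised to retinal by alcohol and retinol dehydrogenases such as Adh1 and Rdh10, and Dhrs3 reduces retinal back to retinol. The retinaldehyde dehydrogenases Aldh1a1, Aldh1a2 and Aldh1a3 then convert retinal to retinoic acid, which Crabp2 carries to its nuclear receptors and Cyp26 enzymes break down. The retinoic acid receptors Rara, Rarb and Rarg bind DNA with retinoid X receptors as partners, at paired copies of a short motif set a fixed number of bases apart.

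Levels are given in CPM, counts in proportion to the library's total, with TMM factors that correct for differences in composition between libraries. Library totals ran from 336437 to 1564581 counts, and 3 counts corresponded to between 1.90 and 9.04 CPM depending on the library. The targeted Wwtr1 averaged 19.3 ± 2.17 CPM in cdKO overload and 135 ± 24.4 CPM in control overload (SD, n = 3 each), and 32.9 ± 7.08 CPM in cdKO sham against 112 ± 7.76 CPM in control sham. Yap1 averaged 30.5 ± 8.70 CPM in cdKO overload and 56.6 ± 25.4 CPM in control overload, with groups that overlapped, and 60.9 ± 6.75 CPM in cdKO sham against 92.0 ± 7.85 CPM in control sham. Since the sources do not say which exons are floxed, these 3′-end counts do not check the deletion itself. Pdgfra was counted in every library, at 250 to 864 CPM, and 7 progenitor markers (7 of 7 tested) summed to between 48906 and 88919 CPM. On the first principal component of all tested genes (46.35% of the variance), overload libraries control replicate 1 and cdKO replicate 2 lay at 15.8 and 7.39, the other 4 overload libraries at 32.6 to 61.1, and the 6 sham libraries at -39.9 to -28.7. The summed level of 4 Y-linked genes was 63.3 and 66.1 CPM in control overload replicates 2 and 3 and 113 to 256 CPM in the other 10 libraries.

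Overload set apart 5 of the 7 measured retinoid genes in the same direction in both genotypes. Crabp2, Aldh1a2 and Aldh1a3 were higher in overloaded muscle, by 3.03-fold to 12.6-fold in cdKO and by 3.36-fold to 7.37-fold in control, and Adh1 and Aldh1a1 were lower, by 3.15-fold to 3.92-fold over both genotypes. A gene is counted as past the threshold where edgeR's quasi-likelihood test gave an adjusted p under 0.05 over all 8161 genes. In cdKO, 3 members were higher and 2 lower past it, against 6.37% of all tested genes higher and 6.68% lower (13.0% in all). In control, 3 were higher and 3 lower, against 10.6% of all tested genes higher and 11.0% lower (21.7% in all). The libraries of overload and sham did not overlap for 5 of 7 members in cdKO (29.9% of all tested genes) and for 6 of 7 in control (36.6% of all tested genes). Since the members were named with these results known, nothing is read from the excess over the background. The median log2 difference over the 7 members was -0.52 in cdKO and -0.50 in control, against -0.02 and -0.05 over all tested genes. Since the members split in direction, this median is the value of Rara, which did not pass, and describes no common shift. In these bulk samples fewer cells of a type and less RNA per cell cannot be told apart.

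**Figure D1:**
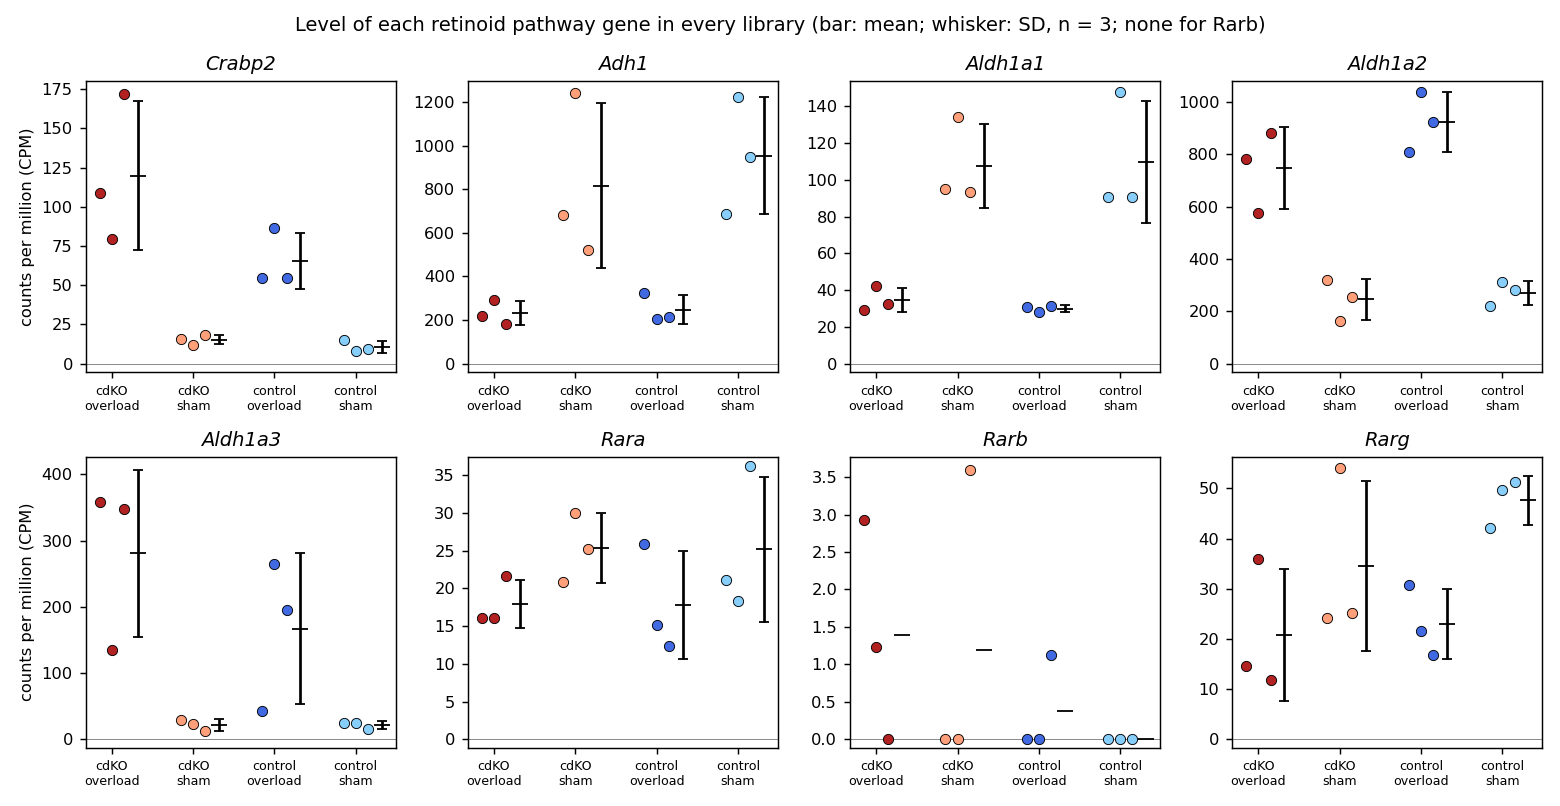
Level of each of the 8 genes in CPM (vertical axis, linear, a separate scale per gene) in the 12 libraries, by group; points are libraries, bars the mean and whiskers the SD (n = 3), except for Rarb, which has no whisker. For Crabp2, Adh1, Aldh1a1, Aldh1a2 and Aldh1a3 the overload and sham points of a genotype do not overlap, whereas those of cdKO and control under the same load do.

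Crabp2 (ENSMUSG00000004885, GRCm38, plus strand, chr3:87948666-87953376) encodes the cytosolic protein that delivers retinoic acid to the receptors. Its level was 108, 79.2 and 172 CPM in cdKO overload, against 15.6, 12 and 18.0 CPM in cdKO sham. In control mice it was 54.9, 86.1 and 54.9 CPM under overload, against 14.7, 7.85 and 9.04 CPM in sham. Every overload library stood above every sham library, and the lowest overload level was that of control replicates 1 and 3. The log2 difference between overload and sham was 2.998 ± 0.35 in cdKO (SE, 95% interval 2.28 to 3.72) and 2.65 ± 0.40 in control (95% interval 1.81 to 3.48). The sham values rest on few reads, 9 to 12 counts per library in cdKO and 3 to 7 in control.

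Adh1 (ENSMUSG00000074207, plus strand, chr3:138260991-138290698) encodes a class I alcohol dehydrogenase that oxidises retinol as well as ethanol. Its level was 217, 293 and 184 CPM in cdKO overload, against 684, 1244 and 521 CPM in cdKO sham. Control mice had levels of 324, 203 and 216 CPM under overload, against 689, 1225 and 949 CPM in sham. All 6 overload libraries stood below all 6 sham libraries, and replicate 2 of each sham group was the highest of its group. The log2 difference was -1.83 ± 0.31 in cdKO (95% interval -2.48 to -1.18) and -1.97 ± 0.31 in control (95% interval -2.62 to -1.32), that is 3.56-fold and 3.92-fold lower under overload. The 3′ end of Adh1 overlaps the antisense gene Gm16559, whose reads cannot be told apart from those of Adh1 where they overlap because the strand setting of the counting is not given. Gm16559 itself had 0 to 1 counts per library.

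Aldh1a1 (ENSMUSG00000053279, plus strand, chr19:20492715-20643465) moved in the same direction as Adh1. It is a retinaldehyde dehydrogenase that is widely expressed in adult tissues. Its level was 29.3, 42.05 and 32.4 CPM in cdKO overload, against 95.2, 134 and 93.4 CPM in cdKO sham. In control mice it was 30.7, 27.9 and 31.4 CPM under overload, against 90.6, 148 and 90.4 CPM in sham. The highest overload library lay at less than the lowest sham library in both genotypes. The difference on the log2 scale was -1.65 ± 0.28 in cdKO (95% interval -2.22 to -1.09) and -1.93 ± 0.28 in control (95% interval -2.51 to -1.35). Without control sham replicate 2, the highest of its group, the control difference was -1.59 and remained past the threshold. Reads of Aldh1a7, a near-identical paralog with 0 to 2 counts per library, may be split with Aldh1a1 or lost in counting, which makes the level of Aldh1a1 uncertain to that extent.

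Aldh1a2 (ENSMUSG00000013584, plus strand, chr9:71215789-71296243), also known as Raldh2, is the main source of retinoic acid in the early mouse embryo. Its level was 783, 576 and 883 CPM in cdKO overload, against 318, 164 and 253 CPM in cdKO sham. Control mice had 808, 1036 and 923 CPM under overload, against 219, 310 and 280 CPM in sham. No overload library was as low as any sham library. Overload minus sham gave a log2 value of 1.60 ± 0.27 in cdKO (95% interval 1.04 to 2.15) and 1.75 ± 0.27 in control (95% interval 1.19 to 2.31).

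Aldh1a3 (ENSMUSG00000015134, minus strand, chr7:66390890-66427517) encodes the third retinaldehyde dehydrogenase, best known for its part in the developing eye and nose. Its level was 359, 135 and 348 CPM in cdKO overload, against 29.4, 23.0 and 12.6 CPM in cdKO sham. In control mice it was 41.95, 264 and 195 CPM under overload, against 25.3, 24.8 and 15.1 CPM in sham. Its overload libraries varied widely, with replicate 1 of the control group and replicate 2 of the cdKO group well below the others. Those libraries also had the lowest overload scores on the first principal component, and what sets them apart was not tested. The log2 difference was 3.66 ± 0.63 in cdKO (95% interval 2.29 to 5.03) and 2.88 ± 0.65 in control (95% interval 1.46 to 4.31). Without control overload replicate 1 the control difference was 3.36, without control overload replicate 2 it was 2.44, and without cdKO overload replicate 2 the cdKO difference was 4.03, all past the threshold. It no longer passed in control, at 2.28, where control overload replicate 2 and control sham replicate 3 were both left out.

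**Figure D2:**
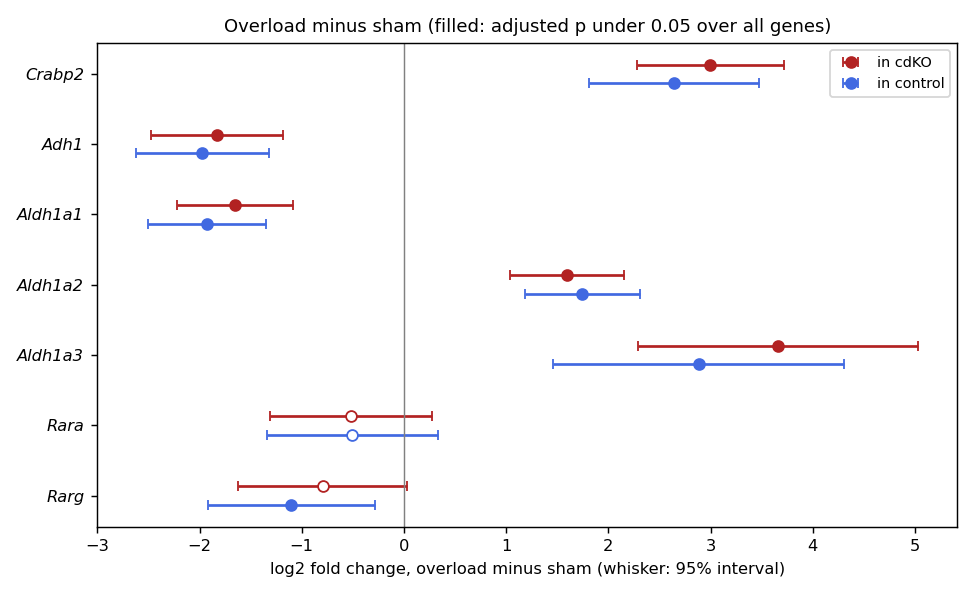
Log2 fold change of overload over sham (horizontal axis) for the 7 members in the fit, in cdKO and in control; whiskers are 95% intervals and filled points passed the threshold over all genes. Crabp2, Aldh1a2 and Aldh1a3 lie right of 0 and Adh1 and Aldh1a1 left of it in both genotypes, and Rarg is filled in control alone; its difference between genotypes did not pass (0.31, 95% interval -0.86 to 1.48).

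The 3 retinaldehyde dehydrogenases did not move in the same direction, with Aldh1a1 lower and Aldh1a2 and Aldh1a3 higher under overload. Their summed level was 1063 ± 272 CPM in cdKO overload and 374 ± 62.4 CPM in cdKO sham (SD, n = 3 each), and 1119 ± 225 CPM in control overload against 401 ± 75.0 CPM in control sham. Of the counts of the 3 genes, Aldh1a1 took 3.55 ± 1.76% in cdKO overload and 29.7 ± 10.6% in cdKO sham, and 2.77 ± 0.69% in control overload against 27.0 ± 3.59% in control sham. Between overload and sham this share did not overlap in either genotype. Aldh1a3 took 25.4 ± 6.65% in cdKO overload and 5.77 ± 1.98% in cdKO sham, and 13.9 ± 8.02% in control overload against 5.53 ± 1.85% in control sham. In control overload replicate 1 its share was 4.76% (95% Wilson interval 3.27% to 6.89%), within the range of the control sham libraries, so that the control groups overlapped for it. Aldh1a2 took 71.1 ± 4.95% in cdKO overload and 83.4 ± 7.36% in control overload, ranges that did not overlap, and 64.5 ± 11.6% in cdKO sham against 67.4 ± 4.56% in control sham, ranges that did. Shares of 3′-end counts depend on how well each transcript is captured, so they are set between groups and not between genes, and no test was made of them.

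**Figure D3:**
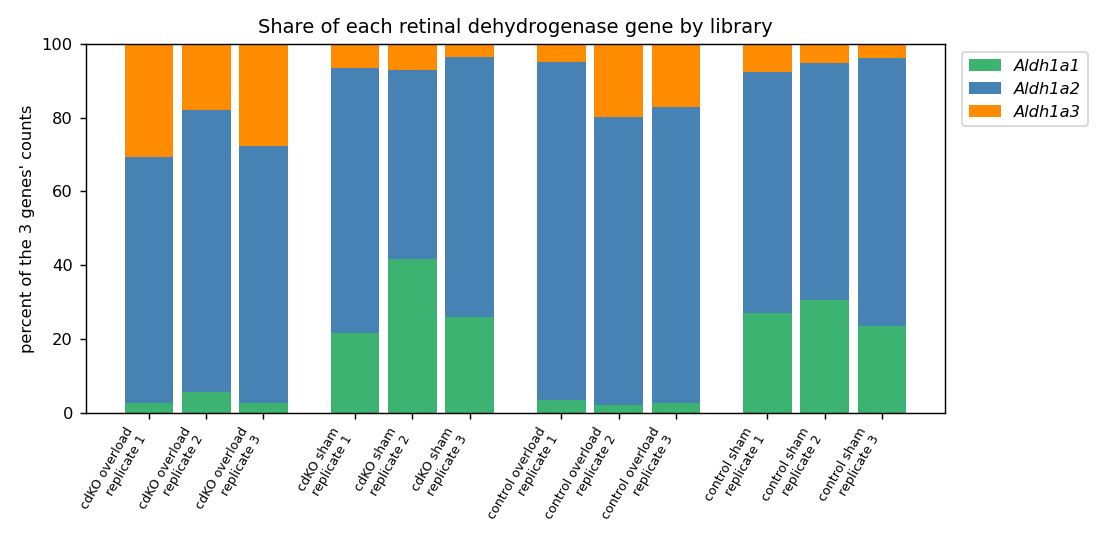
Percent of the summed counts of Aldh1a1, Aldh1a2 and Aldh1a3 (vertical axis) taken by each gene in each of the 12 libraries. The Aldh1a1 segment is at most 5.58% in the 6 overload libraries and at least 21.5% in the 6 sham libraries.

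The receptors were counted at low levels. Rara (ENSMUSG00000037992, plus strand, chr11:98927818-98974942), a broadly expressed receptor, was at 16.1, 16.1 and 21.6 CPM in cdKO overload, against 20.8, 30.0 and 25.1 CPM in cdKO sham. Control mice had it at 25.8, 15.2 and 12.3 CPM under overload, against 21.1, 18.3 and 36.2 CPM in sham. The groups overlapped in both genotypes. The log2 difference of -0.52 ± 0.39 in cdKO (95% interval -1.31 to 0.28) and -0.50 ± 0.41 in control (95% interval -1.34 to 0.33) did not pass. Both intervals hold 0. In control the difference was -0.06 with control overload replicate 2 and control sham replicate 3 both left out.

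Rarg (ENSMUSG00000001288, minus strand, chr15:102234938-102257517), a receptor prominent in skin and skeletal tissues, was at 14.7, 35.9 and 11.9 CPM in cdKO overload, against 24.2, 54.0 and 25.1 CPM in cdKO sham. In control mice it was at 30.7, 21.5 and 16.8 CPM under overload, against 42.1, 49.7 and 51.2 CPM in sham. The control groups did not overlap, whereas cdKO overload replicate 2 lay above cdKO sham replicates 1 and 3. The log2 difference was -0.79 ± 0.40 in cdKO (95% interval -1.62 to 0.03) and -1.10 ± 0.40 in control (95% interval -1.92 to -0.29), past the threshold in control. That call held in 7 of 18 alternative analyses. It was lost with DESeq2 (-1.07), without a filter on low counts (-0.95), and when any control sham library, control overload replicate 2 or 3, cdKO sham replicate 1 or 3 or cdKO overload replicate 1 was left out (-1.16 to -0.90). The call was also lost with control overload replicate 2 and control sham replicate 3 both left out (-0.97). Without cdKO overload replicate 2 the cdKO difference was -1.42 and passed.

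Rarb (ENSMUSG00000017491, minus strand, chr14:16430839-16819156) was hardly counted. It had 2, 1 and 0 counts in cdKO overload and 0, 0 and 2 counts in cdKO sham. Control mice had 0, 0 and 1 counts under overload and 0 counts in each sham library, which allows up to 6.32, 3.92 and 9.04 CPM in sham replicates 1, 2 and 3. No difference was detectable at this depth. The 3′ end of Rarb overlaps Top2b on the other strand, a gene with 28 to 154 counts per library, and reads of the overlap cannot be told apart without the strand setting.

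Rarb is the textbook target of its own receptor family, through a pair of motifs in its promoter, so its upstream bases are shown with those of Adh1 and Aldh1a2, which moved in opposite directions. The sequences are from RefSeq on GRCm38.p6, 250 bases before the RefSeq start of a transcript, 5′ to 3′ on the gene's strand. Windows were held for 6 of the 8 members, those of Crabp2 and Aldh1a3 not among them. Capitals in the Rarb sequence mark first the paired motif and then, nearer the start, the core motif bound by TEAD factors, the DNA-binding partners of Yap1 and Taz, read on the other strand. The Rarb window is chr14:16575477-16575726 on the minus strand, that of Adh1 chr3:138277335-138277584 and that of Aldh1a2 chr9:71215539-71215788, both on the plus strand.
Rarb: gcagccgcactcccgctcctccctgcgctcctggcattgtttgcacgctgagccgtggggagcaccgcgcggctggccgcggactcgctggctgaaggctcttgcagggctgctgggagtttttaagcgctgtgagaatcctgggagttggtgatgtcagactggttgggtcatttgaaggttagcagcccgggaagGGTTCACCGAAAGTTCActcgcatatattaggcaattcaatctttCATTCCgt
Adh1: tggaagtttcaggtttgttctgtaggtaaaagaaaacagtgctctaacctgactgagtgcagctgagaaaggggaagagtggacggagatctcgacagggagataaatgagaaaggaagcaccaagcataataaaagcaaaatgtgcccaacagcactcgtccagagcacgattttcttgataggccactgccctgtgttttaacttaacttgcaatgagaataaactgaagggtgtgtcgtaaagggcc
Aldh1a2: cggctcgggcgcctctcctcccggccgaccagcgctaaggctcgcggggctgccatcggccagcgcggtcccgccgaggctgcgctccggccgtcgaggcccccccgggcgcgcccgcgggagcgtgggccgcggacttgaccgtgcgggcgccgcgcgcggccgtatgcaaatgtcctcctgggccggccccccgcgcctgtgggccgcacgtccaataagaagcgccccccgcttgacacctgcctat

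Windows of 250 bases before to 50 bases after the start were searched on both strands for the motif AGGTCA, its variant with the letters AGTTCA, the variant spelled GGGTCA and lastly the variant spelled GGTTCA, each singly, for any pair of these in the same direction with 1, 2 or 5 bases between them (DR1, DR2 and DR5), and for the TEAD core GGAATG. Every pair also holds single matches, so those searches overlap. Rarb held the DR5 pair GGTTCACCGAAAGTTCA, which begins at position -53 from the start, and a further single copy at -83. The DR5 pairs occur in 0.0974% of the 32851 promoter windows of that length. The share of windows is 0.222% for DR1, 0.268% for DR2, 43.7% for a single copy and 14.7% for the TEAD core. The TEAD core lay at position -8 in Rarb and at -168 in 1 of the 2 Aldh1a1 windows. The other Aldh1a1 window, 1 of the 2 Rarg windows and 2 of the 4 Rara windows held single copies. The windows of Adh1 and Aldh1a2, which have 45.3% and 78.0% G and C bases, held none of these motifs. A match describes letters in a window and not a bound site, and no match says nothing of the factor.

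Between cdKO and control mice no member differed past the threshold. The count was 0 of 7 in overloaded muscle, against 0.0368% of all tested genes, and 0 of 7 in sham muscle, against 0.0123%. The genes that passed include the targeted Wwtr1 (edgeR adjusted p = 1.83e-06 in overloaded and 0.00733 in sham muscle), the only 1 in sham muscle. The targeted Yap1 passed in neither (edgeR adjusted p = 0.586 and 0.999). The libraries of the genotypes overlapped for all 7 members under both loads, against 10.6% of all tested genes without overlap in overloaded and 9.73% in sham muscle. At an unadjusted p under 0.05, edgeR counted 1 member in overloaded and 0 in sham muscle, against 569 and 334 of all tested genes, and DESeq2 with its own adjustment called 0 members in either.

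Crabp2 was the member with the largest genotype difference in overloaded muscle, 120 ± 47.4 CPM in cdKO against 65.3 ± 18.1 CPM in control (SD, n = 3 each). Its log2 difference of 0.86 ± 0.28 had a 95% interval of 0.28 to 1.45, which leaves out 0 before adjustment over all genes, and cdKO overload replicate 2 lay below control overload replicate 2. For Aldh1a3 the difference was 0.73, with an interval of -0.38 to 1.84. For Aldh1a2 it was -0.30, with an interval of -0.83 to 0.23, and for Aldh1a1 0.23, with an interval of -0.38 to 0.84. For Adh1 the interval was -0.73 to 0.55, for Rara -0.72 to 0.88 and for Rarg -0.95 to 0.74. In sham muscle Crabp2 stood at 15.2 ± 3.0 CPM in cdKO and 10.5 ± 3.69 CPM in control, a log2 difference of 0.51 with an interval of -0.50 to 1.52. The intervals of the other 6 members in sham muscle all held 0, the narrowest for Aldh1a1 (-0.58 to 0.48) and the widest for Aldh1a3 (-1.74 to 1.65). These intervals do not show that the genotypes were alike: a doubling or halving, a log2 difference of 1 in size, lay outside them for Adh1, Aldh1a1, Aldh1a2, Rara and Rarg in overloaded muscle, but not for Crabp2 or Aldh1a3. In sham muscle it lay outside them for Adh1, Aldh1a1, Aldh1a2 and Rara, but not for Crabp2, Aldh1a3 or Rarg (-1.21 to 0.38).

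**Figure D4:**
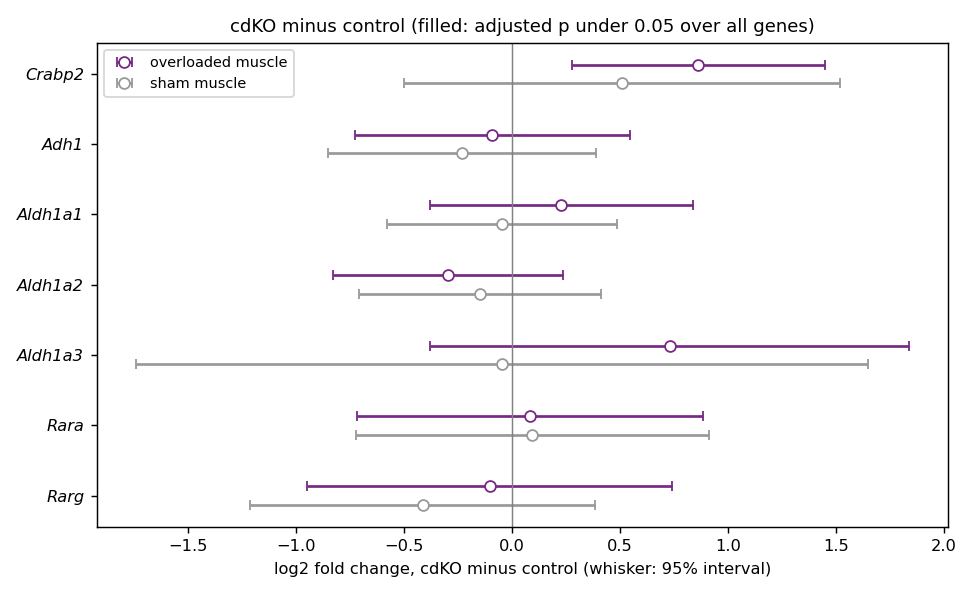
Log2 fold change of cdKO over control (horizontal axis) for the 7 members, in overloaded and in sham muscle; whiskers are 95% intervals and open points did not pass the threshold over all genes. All points are open, and only the interval of Crabp2 in overloaded muscle lies wholly to the right of 0.

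The effect of overload itself was not shown to differ between genotypes for any member. In the interaction test, which takes the overload effect in cdKO minus that in control, 0 of 7 members passed, and 0.00% of all tested genes did. At an unadjusted p under 0.05 the counts were 0 members and 427 of all tested genes, and DESeq2 called 0 members. The interaction was 0.78 for Aldh1a3 (95% interval -1.26 to 2.82), 0.35 for Crabp2 (-0.86 to 1.56) and -0.15 for Aldh1a2 (-0.92 to 0.62). For Adh1 it was 0.14 (-0.75 to 1.03), for Aldh1a1 0.27 (-0.53 to 1.08), for Rara -0.01 (-1.19 to 1.16) and for Rarg 0.31 (-0.86 to 1.48).

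Ordered by mean level, Crabp2 and Aldh1a3 ran from cdKO overload through control overload down to the sham groups, and Aldh1a2 from control overload through cdKO overload to the sham groups. Adh1 and Aldh1a1 had control sham first, then cdKO sham, and the overload groups last. For these 5 genes, neighbouring groups of the same load overlapped, and the only step without overlap was that between the loads. For Rara, Rarb and Rarg all neighbouring groups in the order overlapped.

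Genes with the most similar pattern were taken by the smallest root mean square difference of centred log2 CPM over the 12 libraries, among 7742 tested genes. Nearest to Crabp2 were Clcf1, which encodes a cytokine of the interleukin-6 family (0.36), and Acsl4, an acyl-CoA synthetase (0.42), against a median of 1.42 over all genes. Clcf1 averaged 176 ± 82.5 CPM in cdKO overload and 19.0 ± 5.23 CPM in cdKO sham, and 138 ± 22.3 CPM in control overload against 14.4 ± 7.92 CPM in control sham. Nearest to Adh1 were the transcription factor gene Klf2 (0.25) and Hexim1, which encodes an inhibitor of P-TEFb (0.27), with a median of 1.08. Aldh2, the mitochondrial aldehyde dehydrogenase, was nearest to Aldh1a1 (0.17), followed by the lysosomal gene Psap (0.18), with a median of 0.96. Aldh2 averaged 78.2 ± 14.3 CPM in cdKO overload and 255 ± 93.3 CPM in cdKO sham, and 69.0 ± 8.80 CPM in control overload against 239 ± 25.9 CPM in control sham. Nearest to Aldh1a2 were the proteasome gene Psmd14 (0.19) and Hif1a, the oxygen-regulated transcription factor gene (0.20), with a median of 0.99. For Aldh1a3 the chemokine gene Cxcl2 stood at 0.60 and Prg4, which encodes lubricin, at 0.68, with a median of 1.73. Prg4 averaged 9345 ± 2223 CPM in cdKO overload and 981 ± 77.9 CPM in cdKO sham, and 6039 ± 1113 CPM in control overload against 694 ± 182 CPM in control sham. For Rara they were Tbc1d12 (0.21) and Higd2a (0.22), with a median of 0.62, and for Rarg Pitpnm2 (0.29) and Cryl1 (0.30), with a median of 0.78. With a prior count of 0.5 in place of 2, Acsl4 and Cryl1 were no longer among the 2 nearest.

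The other steps of the pathway were read from 54 further genes listed by name and function, of which 25 were tested. This list too was drawn up with earlier results of these libraries known, so its counts and adjusted p-values are not independent evidence of a direction. Between overload and sham in cdKO, 1 was higher, 5 were lower and 19 did not pass, with a median log2 difference of -0.18, against 6.37% higher, 6.68% lower and a median of -0.02 over all tested genes. In control, 2 were higher, 5 lower and 18 did not pass, with a median of -0.15, against 10.6%, 11.0% and -0.05 over all tested genes. Between genotypes under either load and in the interaction, 0 of 25 passed, while 3, 1 and 2 had an unadjusted p under 0.05 in edgeR, against 6.97%, 4.09% and 5.23% of all tested genes. DESeq2 called 0 of 25 in each of these 3 comparisons.

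Rdh10, the retinol dehydrogenase that carries out the first oxidation in the embryo, was higher under overload. Its level was 191, 80.4 and 183 CPM in cdKO overload, against 55.4, 47.0 and 37.7 CPM in cdKO sham. In control mice it was 208, 226 and 200 CPM under overload, against 59.0, 49.7 and 21.1 CPM in sham. No groups overlapped between loads. The difference on the log2 scale was 1.67 ± 0.31 in cdKO (edgeR adjusted p = 0.000954) and 2.21 ± 0.32 in control (edgeR adjusted p = 2.85e-05), and both calls held in all 18 alternatives run. Rdh10 moved the opposite way to Adh1, which acts on the same substrate.

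Dhrs3, which reduces retinal to retinol, was at 27.8, 51.9 and 28.1 CPM in cdKO overload, against 95.2, 107 and 70.1 CPM in cdKO sham. It fell by 1.35 on the log2 scale in cdKO (SE 0.31, edgeR adjusted p = 0.00507), and the groups did not overlap. In control it stood at 40.4 ± 9.81 CPM under overload and 63.9 ± 21.1 CPM in sham (SD, n = 3 each), a log2 difference of -0.71 ± 0.32 that did not pass (edgeR adjusted p = 0.113). Of the 7 oxidation and reduction genes tested, the other 5 passed in neither genotype. Of all tested genes, 13.0% passed in cdKO and 21.7% in control.

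Cyp26b1, which degrades retinoic acid and was the only tested gene of that step, was lower under overload. It was at 8.79, 28.4 and 15.1 CPM in cdKO overload, against 41.5, 234 and 68.3 CPM in cdKO sham. For control mice the levels were 17.7, 19.0 and 4.48 CPM under overload, against 92.7, 119 and 84.4 CPM in sham. The sham libraries stood above the overload libraries of their genotype, with cdKO sham replicate 2 far above the rest. Overload minus sham gave a log2 value of -2.74 ± 0.65 in cdKO (edgeR adjusted p = 0.0176) and -2.84 ± 0.67 in control (edgeR adjusted p = 0.0106). Without cdKO sham replicate 2 the cdKO value was -1.68 (edgeR adjusted p = 0.0222). The cdKO call was lost without cdKO overload replicate 1 (adjusted p = 0.0713) and without cdKO overload replicate 3 (adjusted p = 0.107), and the control call held in all 18 alternatives.

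**Figure D5:**
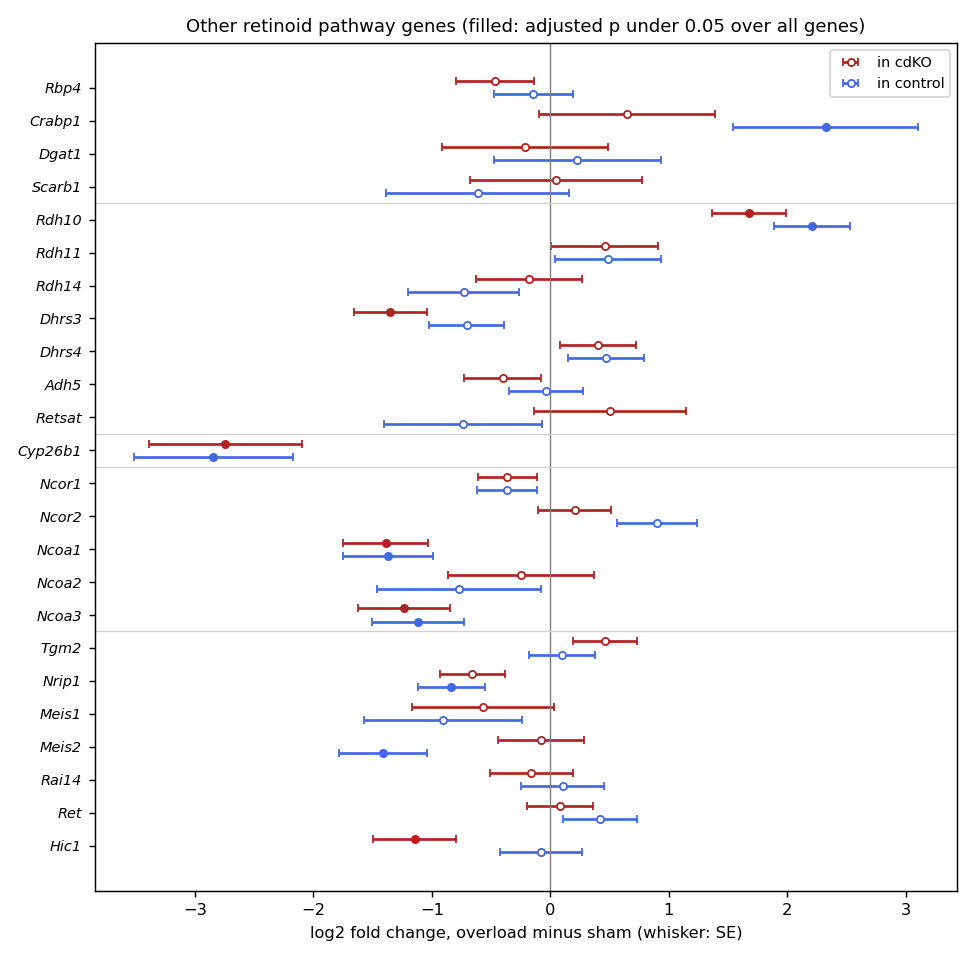
Log2 fold change of overload over sham (horizontal axis) for tested genes of the wider list, in cdKO and in control, grouped from top to bottom as uptake, oxidation, degradation, co-regulators and reported response genes; whiskers are SE and filled points had an adjusted p under 0.05 over all genes. Rdh10 is filled right of 0 in both genotypes, and Cyp26b1, Ncoa1 and Ncoa3 are filled left of it in both.

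Of the 5 tested genes of uptake, transport and storage, 0 passed in cdKO and 1 in control, against 13.0% and 21.7% of all tested genes. Crabp1, the other cellular retinoic acid-binding protein, had 6.45, 31.0 and 17.9 CPM in control overload, against 4.21, 5.23 and 0 CPM in control sham, the sham values being 2, 4 and 0 counts. Its log2 difference in control was 2.32 ± 0.78 (edgeR adjusted p = 0.0334), a call held in 11 of the 15 alternatives that tested it and lost without control sham replicate 1, 2 or 3 (adjusted p = 0.0574 to 0.0793) and with control overload replicate 2 and control sham replicate 3 both left out (adjusted p = 0.424, log2 difference 1.38). In cdKO it was 0.65 ± 0.74 and did not pass.

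Of 5 tested co-regulators, the co-activator genes Ncoa1 and Ncoa3 were lower under overload in both genotypes. That is 2 of 5 in each, against 6.68% of all tested genes lower in cdKO and 11.0% in control. Ncoa1 was at 16.1, 29.7 and 18.4 CPM in cdKO overload, against 45.0, 55.0 and 68.3 CPM in cdKO sham, a log2 difference of -1.39 ± 0.36 (edgeR adjusted p = 0.0114). In control it was at 21.0, 12.7 and 20.2 CPM under overload, against 69.5, 32.7 and 30.1 CPM in sham, a log2 difference of -1.37 ± 0.38 (edgeR adjusted p = 0.011). The cdKO call was lost without cdKO overload replicate 1 (adjusted p = 0.0716) or 3 (0.0709), and the control call without control sham replicate 1 (0.166), without control overload replicate 2 (0.0935), with control overload replicate 2 and control sham replicate 3 both left out (0.0806) and without a filter on low counts (0.0603). The Ncoa3 difference was -1.24 ± 0.39 in cdKO (edgeR adjusted p = 0.0356) and -1.12 ± 0.39 in control (edgeR adjusted p = 0.0415), and its calls held in 10 and 6 of 18 alternatives, with adjusted p up to 0.211 and 0.306. In cdKO it was lost without control sham replicate 2, any cdKO sham library or cdKO overload replicate 1 or 3, and in control without any control sham library, control overload replicate 2 or 3, cdKO sham replicate 1 or 3 or cdKO overload replicate 1. Both Ncoa3 calls were also lost with DESeq2 (adjusted p = 0.069 in cdKO and 0.0955 in control) and without a filter on low counts (edgeR adjusted p = 0.198 in cdKO and 0.306 in control), and the control call with control overload replicate 2 and control sham replicate 3 both left out (edgeR adjusted p = 0.203). The co-repressor gene Ncor1 did not pass, with -0.36 ± 0.25 in cdKO and -0.37 ± 0.25 in control. The partner receptor genes Rxra, Rxrb and Rxrg were not tested, with at most 16, 9 and 5 counts per library.

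The list of genes reported to respond to retinoic acid held no member and no gene counted at another step, so it does not cover all such genes. Of its 7 tested genes, 0 were higher and 1 lower under overload in cdKO, against 6.68% of all tested genes lower. In control 0 were higher and 2 lower, against 11.0% of all tested genes lower. Nrip1, a co-regulator of nuclear receptors, was at 110, 64.6 and 80.6 CPM in control overload, against 116, 175 and 148 CPM in control sham, a log2 difference of -0.84 ± 0.28 (edgeR adjusted p = 0.0339). Meis2, a homeobox gene, was at 17.7, 11.4 and 21.3 CPM in control overload, against 33.7, 61.5 and 27.1 CPM in control sham, a log2 difference of -1.41 ± 0.37 (edgeR adjusted p = 0.00806). The call of Nrip1 held in 11 of 18 alternatives. It was lost without control sham replicate 2 or 3 or control overload replicate 2 or 3 (edgeR adjusted p = 0.093 to 0.211), with control overload replicate 2 and control sham replicate 3 both left out (0.304), without a filter on low counts (0.31) and with DESeq2 (0.0501). That of Meis2 was lost without control sham replicate 2 (edgeR adjusted p = 0.167), without control overload replicate 2 (0.0843) and with control overload replicate 2 and control sham replicate 3 both left out (0.0641). In cdKO the difference of Nrip1 was -0.66 ± 0.27 and that of Meis2 -0.08 ± 0.36, neither past the threshold. Hic1, a transcriptional repressor gene expressed in mesenchymal progenitors, fell by 1.15 on the log2 scale in cdKO (SE 0.35, edgeR adjusted p = 0.0317), with 30.8, 44.5 and 54.1 CPM under overload against 58.8, 166 and 53.9 CPM in sham. Its groups overlapped there, and the call was lost without cdKO sham replicate 2 (log2 difference -0.42, edgeR adjusted p = 0.491) and without cdKO overload replicate 1, 2 or 3 (0.0614 to 0.162). In control Hic1 stood at -0.08 ± 0.35. The interaction of Meis2 was 1.33, with an edgeR adjusted p of 0.885, and that of Hic1 was -1.06, with an edgeR adjusted p of 0.927, so neither effect was shown to differ between genotypes.

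Pdgfra, the gene that defined the sorted cells and drives the recombinase, was at 305, 372 and 250 CPM in cdKO overload, against 533, 864 and 551 CPM in cdKO sham, a log2 difference of -1.09 ± 0.26 (edgeR adjusted p = 0.0062). In control mice Pdgfra was at 415, 367 and 296 CPM under overload, against 569, 459 and 446 CPM in sham, a log2 difference of -0.48 ± 0.26 that did not pass (edgeR adjusted p = 0.186). The overload libraries lay below the sham libraries of their genotype in both. Summed markers of other cells and of progenitor subsets also differed between the loads. The summed level of 5 adventitial progenitor markers (5 of 5 tested) was 377 to 550 CPM in cdKO overload and 573 to 825 CPM in cdKO sham, and 269 to 287 CPM in control overload against 612 to 673 CPM in control sham. The 7 endothelial markers (5 tested) summed to 24.9 to 49.5 CPM in cdKO overload and 67.5 to 154 CPM in cdKO sham, and to 15.2 to 88.7 CPM in control overload against 98.1 to 158 CPM in control sham. The 7 pericyte and smooth muscle markers (4 tested) summed to 93.8 to 110 CPM in cdKO overload and 171 to 224 CPM in cdKO sham, and to 75.0 to 111 CPM in control overload against 164 to 241 CPM in control sham. These sums were lower under overload without overlap, as were Adh1, Aldh1a1 and Cyp26b1. Lack of overlap between loads, in either direction, was common, at 29.9% of all tested genes in cdKO and 36.6% in control. The 6 Schwann and nerve sheath markers (1 tested) summed to 54.4 to 97.3 CPM in cdKO overload and 23.0 to 41.5 CPM in cdKO sham, and to 68.3 to 101 CPM in control overload against 25.3 to 41.8 CPM in control sham. They were higher under overload, as were Crabp2, Aldh1a2 and Aldh1a3. Erythroid genes (3 of 5 tested) summed to 0 to 1.08 CPM in cdKO overload and 5.19 to 120 CPM in cdKO sham, and to 12 to 263 CPM in control overload against 0 to 4.21 CPM in control sham, lower in cdKO and higher in control. The lists of muscle stem cells, myofibres, myeloid cells, lymphocytes, mesothelium and tenocytes overlapped between loads. No listed marker was at 0 in all libraries. The part of these cells and subsets, and of the Pdgfra level, in the retinoid differences was not tested.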

How the data were processed

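RNA was measured in 12 libraries of sorted progenitors, 1000 cells per tube, made with a low-input method that reads 3′ ends, per the labels' protocols. The authors deposited raw, unnormalised counts per gene. Tools and build were featureCounts 2.0.1, HISAT2 2.2.1, Trim Galore 0.6.6, DESeq2 1.26.0 and the build GRCm38, per the submitters' processing notes. The sources used here do not state the annotation release, the strand setting or any use of molecular identifiers. Reads without identifiers are not independent molecules, so intervals of shares and floors of 3 counts cover counting error only. All 54100 identifiers matched the GRCm38 annotation used for coordinates, and 0 columns were left out.

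The counts were tested with edgeR 4.0.16 in R 4.3.3: filterByExpr, TMM factors, 1 robust quasi-likelihood fit with a mean per group, two-sided tests and Benjamini-Hochberg adjustment over 8161 genes at 0.05. A standard error is the size of the log2 fold change over the square root of F, and 95% intervals use the fit's degrees of freedom. The test was first run on simulated counts, whose outcome is not given and is not used as support. The 8 members and the lists were chosen with earlier results of these data known. Named beside the members are the genes of the wider list past the threshold in any comparison, the gene of each of its groups with the highest mean CPM, and the 2 tested genes nearest in pattern to each member; 1 gene so chosen is not reported here. Alternatives were DESeq2 1.42.0, edgeR with DESeq2 size factors, an unfiltered table, a block for the replicate number, only the groups compared, each library left out, and control overload replicate 2 with control sham replicate 3 left out.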

Additional observations from a re-analysis of the deposited data

Results flagged for a closer look

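The summed level of 5 erythroid marker genes, a sign of red blood cell RNA in the sorted samples, went in opposite directions in the genotypes. It averaged 0.360 ± 0.624 CPM in cdKO overload and 78.9 ± 64.0 CPM in cdKO sham (SD, n = 3 each), a difference of -78.5 CPM, and 107 ± 136 CPM in control overload against 2.28 ± 2.13 CPM in control sham, a difference of 105 CPM. Read between genotypes, cdKO minus control was -107 CPM in overloaded and 76.6 CPM in sham muscle. In each of these 4 comparisons the libraries did not overlap, as was the case for 9.73% to 36.6% of all tested genes. Some margins were narrow. The lowest cdKO sham library, replicate 1, was at 5.19 CPM, the level of 3 counts there. Control sham replicate 1 was at 4.21 CPM and cdKO overload replicate 3 at 1.08 CPM. The difference between the effects was not tested, and the spread within the higher groups was as large as their means or nearly so.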

How the results depend on the processing

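Of 622 alternative values of the members' log2 differences, 614 moved by less than the spread between replicates, 8 moved by more, and 0 called values changed sign. That spread is the SD of single libraries, and many alternatives kept all the compared libraries. Small moves were therefore likely from the outset, and the count is a weak check. The calls of Crabp2, Adh1, Aldh1a1 and Aldh1a2 between overload and sham held in 18 of 18 alternatives in both genotypes. As in every such count here, the alternatives include fits without a library of the other genotype. Those fits can change a call only through the shared scaling, filter, spread and adjustment. With each library left out in turn, the number of members past the threshold was 5 to 6 in cdKO (5 with all libraries), 5 to 6 in control (6 with all libraries), and 0 in the genotype and interaction comparisons. It was 4 in control with control overload replicate 2 and control sham replicate 3 both left out.

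Counts over many genes depended more on the libraries. Over all genes between overload and sham in cdKO, 1065 passed, 702 without a filter on low counts, and 423 (without cdKO overload replicate 3) to 1287 with a library left out; it was 551 without cdKO sham replicate 2 and 473 without cdKO overload replicate 1. In control 1768 passed, 1060 (without control overload replicate 2) to 2508 (without control overload replicate 1) with a library left out, and 712 without the pair named above. Of the 25 other retinoid genes, 6 passed in cdKO and 2 to 6 with a library left out, the 2 without cdKO overload replicate 1 or 3. In control 7 passed, 4 without a filter, 2 without that pair, and 2 (without control overload replicate 2) to 9 with a library left out; it was 4 without control sham replicate 1 or 3 or control overload replicate 3, and 3 without control sham replicate 2. Between genotypes in overloaded muscle 3 genes passed, 17 without a filter, 1 in a fit of only the groups compared, and 1 to 34 with a library left out, the 34 without control overload replicate 1 and the 1 without control overload replicate 3 or cdKO overload replicate 3; it was 5 without cdKO sham replicate 2. In sham muscle 1 passed, 2 with DESeq2 or only the groups compared, 0 without that pair, and 0 to 1 with a library left out, the 0 without control sham replicate 1 or 3 or cdKO sham replicate 1 or 3. In the interaction 0 passed, 1 with DESeq2, 10 without a filter, and 0 to 1 with a library left out, the 1 without control sham replicate 1 or cdKO overload replicate 2. The cause was not tested.

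The replicate numbers share only a number: same-number libraries of different groups correlated at -0.23 to 0.27 in their deviations, over 0.1 in 6 of 18 pairs, and 5 of 12 libraries correlated best with their own number. With the replicate block 1035, 1752, 3, 1 and 0 genes passed in the 5 comparisons, with 5, 6, 0, 0 and 0 members and 6, 6, 0, 0 and 0 of the other retinoid genes; Ncoa3 in control was the call lost (edgeR adjusted p = 0.0505).

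Precision is limited by depth: Crabp2 had 3 to 12 and Aldh1a3 5 to 23 counts per sham library, and Rarb at most 2 counts in any library. Between libraries of the same group, the chi-square per degree of freedom over genes was 3.22 to 19.2, above sampling noise.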
